A study of Rattus norvegicus with 6 samples.

Results

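The potassium channel genes of the rat hippocampus were followed on 6 one-colour Agilent expression arrays after both common carotid arteries had been tied off, an operation abbreviated BCCAo that leaves the brain with a lasting shortage of blood. Members were all genes whose name on the array begins with Kcna, Kcnb, Kcnc, Kcnd, Kcnh, Kcnj, Kcnk, Kcnma, Kcnn, Kcnq, Kcnt, Kcnab or Kcnip, with Kcnj8, Kcnj10 and Kcnj13 left out. This rule used names and no measured value, and gave 68 of 17507 genes, carried by 94 probes. Per the labels the animals were male rats of the Wistar background strain. The control array is described by the label Control alone, with an age of 12 weeks. The occluded groups were sampled at day 21 (age 13 weeks), day 35 (14 weeks), day 45 (15 weeks), day 55 (16 weeks) and day 70 (17 weeks), so that age and day cannot be told apart, and the age labels do not advance by as many weeks as the days do. RNA was pooled before labelling. The sources used here give neither the number of animals in a pool nor any sham surgery of the controls. Each group had 1 array and no replicate, so every value below describes 1 array of pooled RNA and no p-value or error between animals can be given.

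Slide 1 held the control array with those of days 21 and 35, and slide 2 held days 45, 55 and 70. Slide and day therefore cannot be told apart for the 3 later days, whereas days 21 and 35 were read beside the control. Between 74.5% and 80.2% of spots on an array were well above background, the scanner software's own criterion. Markers of hippocampal cells were measured: all 9 pyramidal cell genes of the marker list but Spink8 were well above background on every array, as were all 13 synaptic vesicle genes. Genes of the choroid plexus, a tissue that lies beside the hippocampus, had a summed intensity of 6781 on the control array, 73122 at day 21, 38581 at day 35, 6500 at day 45, 6398 at day 55 and 62679 at day 70, the largest share from Ttr. That sum was high on the day 21, 35 and 70 arrays and follows Ttr, while single genes of the list differed from it, such as Otx2, at 1.38 above the control at day 55, and Clic6, at -1.21 at day 70.

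Potassium channels let potassium leave the cell, which sets the resting potential and ends the action potential. The voltage-gated families Kv1 to Kv4, the KCNQ (Kv7) channels and the KCNH channels (EAG, ERG and ELK) open on depolarisation, while inward rectifiers and 2-pore leak channels act near rest, and the BK, SK, IK and sodium-activated channels open when calcium or sodium enters. In the hippocampus Kv4 channels with their interacting proteins limit the excitability of dendrites, and several other members, among them the IK channel Kcnn4 and the leak channel Kcnk13, are known from microglia.

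A signal is given as scaled intensity, the scanner's background-subtracted intensity after each array was set to a common 75th percentile, and a difference as log2 of a day minus the control. Of the 68 genes, 57 were well above background on all 6 arrays. Another 5, among them Kcna5, Kcnh5, Kcnk9 and Kcnn4, were so on only some of them. By the probe used for each, Kcna10, Kcnj1, Kcnj2, Kcnj15, Kcnk15 and Kcnk18 were not well above background on any array and have no difference. The probe levels do not show whether these genes are expressed. Another Kcnj1 probe was well above background on 1 array, reading 20.3 at day 70. Differences could be taken for 60 or 61 members on each day. A difference is a bound, written as "at least", if the probe was not distinguished from background on the array where it was dimmer. A total of 1390 probes were printed 10 times on each array, and from their scatter the SD of a difference between 2 single spots was 0.27 log2 units in the dimmest of 4 classes of signal and 0.079 in the brightest. This SD covers the scatter of spots within an array and nothing else.

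At day 21 most potassium channel genes lay a little below the control and a small group lay clearly above it. The median difference of the 61 measured members was -0.25, against -0.069 over all 13916 genes measured, and 46 of the 61 were below the control, compared with 60.5% of all genes. At a threshold of 2-fold, 2 members were higher, Kcnn4 and Kcnj5, where 3.61% of all genes were higher, and no member was lower, where 1.88% of all genes were. In either direction 2 of 61 members passed, against 5.49% of all genes. Beyond 2 SD of spot scatter lay 33 members below and 8 above the control, together 67.2% of the members and 42.9% of all genes.

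The day 21 array also differed from the control in marker genes of several cell types. All 14 microglia genes were above the control there, with a median log2 difference of 1.65 and a summed intensity of 39020 on the control array, 108708 at day 21 and between 36823 and 42945 on the other 4. All 14 were well above background on all 6 arrays. The 9 genes of meninges and fibroblasts were all higher too, with a median of 1.55. All 13 synaptic vesicle genes were below the control at day 21, with a median of -0.34, and 7 of 9 pyramidal cell genes were, with a median of -0.38. Of the 9 measured interneuron genes 8 were lower, but their median of -0.060 was close to the -0.069 of all genes, of which 60.5% were lower. In bulk tissue fewer cells of a type and less RNA per cell cannot be told apart, and the part of these marker differences in the channel values was not tested.

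**Figure D1:**
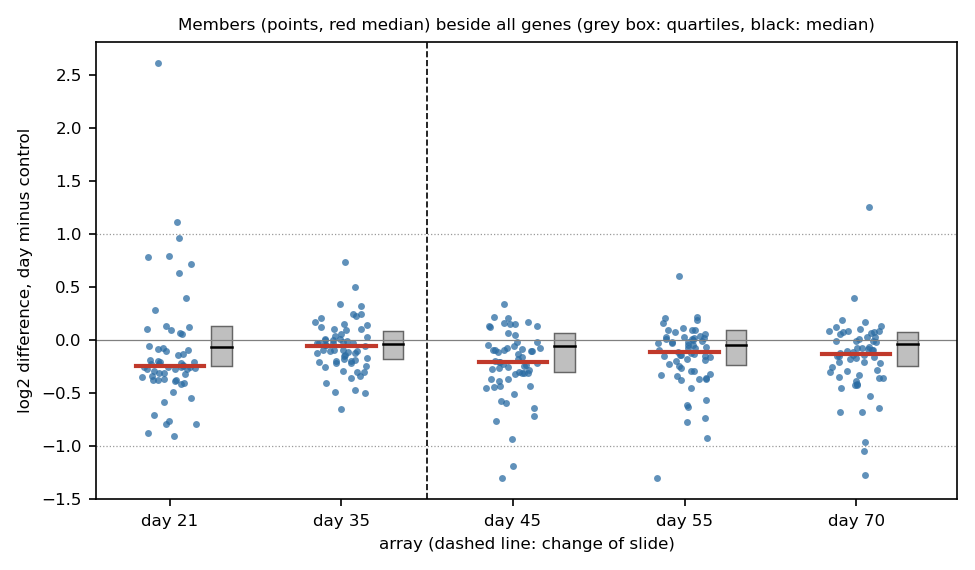
Log2 difference from the control array for each measured potassium channel gene (points) on each day, with the members' median in red and the quartiles and median of all genes as a grey box with a black line; dotted lines mark 2-fold and the dashed line the change of slide. The members' median is -0.25 at day 21 against -0.069 for all genes, and a few members stand above 1 at day 21 and below -1 on the later days.

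At day 35 the members were close to the control. Their median was -0.060, against -0.039 for all 13921 genes, and 40 of 61 lay below the control where 58.3% of all genes did. No member differed by 2-fold, where 1.58% of all genes did. At 2-fold or more higher stood 0.453% of all genes and at 2-fold or more lower 1.13%. The largest difference downwards was -0.65, for Kcnh4. The sign of the members' median depended on the scaling: it was 0.0099 when arrays were set to a common median and 0.0087 in the authors' deposited values. Set directly against each other on their shared slide, day 35 was higher than day 21 by a median of 0.16 over 61 members, and 3 members differed by at least 2-fold between them, where 5.54% of all genes did. Kcnn4 and Kcnj5, both higher at day 21, were among them.

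On the 3 arrays of slide 2 the members' medians were -0.21 at day 45, -0.12 at day 55 and -0.13 at day 70, against -0.058, -0.044 and -0.036 over all genes. At day 45, 48 of 60 members were below the control, where 61.8% of all genes were. Setting arrays to a common median moved the median of all genes at day 45 from -0.058 to 0.065, and the count of members below the control to 35 of 60, where 39.8% of all genes were. It was 36 of 59 under quantile normalization, where 44.3% of all genes were below. In the authors' deposited values it was also 36 of 59, where 46.0% of all genes were. Relative to the median of all genes the members stood at -0.15 at day 45, at -0.11 with normexp background correction, at -0.081 under quantile normalization and at -0.069 in the authors' values. The day 55 median of the members was -0.038 after median scaling and in the authors' values and -0.052 under quantile normalization. At a threshold of 2-fold, 2 members, among them Kcnq1, were lower at day 45, where 5.78% of all genes were, and no member was higher, where 0.596% were. That makes 2 of 60 members against 6.38% of all genes. Kcna5 was lower at day 55, where 4.98% of all genes were, and no member was higher (0.652% of all genes), which makes 1 of 61 against 5.63%. Kcnq1 and Kcna7 were lower at day 70, where 6.7% of all genes were, and 1 member was higher, where 0.663% were, which makes 3 of 60 against 7.36%. On none of the 3 days did members pass the threshold more often than all genes.

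Within slide 2 the members differed little. No member of 58 differed by 2-fold between days 45 and 55, where 1.62% of all genes did. Between days 45 and 70 it was 1 member (1.96% of all genes), as it was between days 55 and 70 (1.81% of all genes).

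At a lower threshold of 1.5-fold in either direction, 14 of 61 members passed at day 21, where 13.2% of all genes did, 7 of them higher and 7 lower. At day 35 it was 2 of 61 (5.75% of all genes), at day 45 7 of 60 (13.9%), at day 55 7 of 61 (12.8%) and at day 70 7 of 60 (14.8%).

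Over the whole course 55 of 60 members stayed within 2-fold of the control on all 5 days, as 88.3% of all genes did. Another count concerns side: 22 of 60 members were below the control on all 5 days, where 23.4% of all genes were, and only 1, Kcnk13, was above it on all 5 (8.73% of all genes), with a day 45 value whose sign changed with the processing. These 5 differences share the control array. The control was the highest of the 6 arrays for 21 of the 57 members measured on all of them, against 20% of all genes. Day 21 was the lowest array for 20 of the 57 (31.6% of all genes) and day 45 for another 20 (21.4% of all genes).

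**Figure D2:**
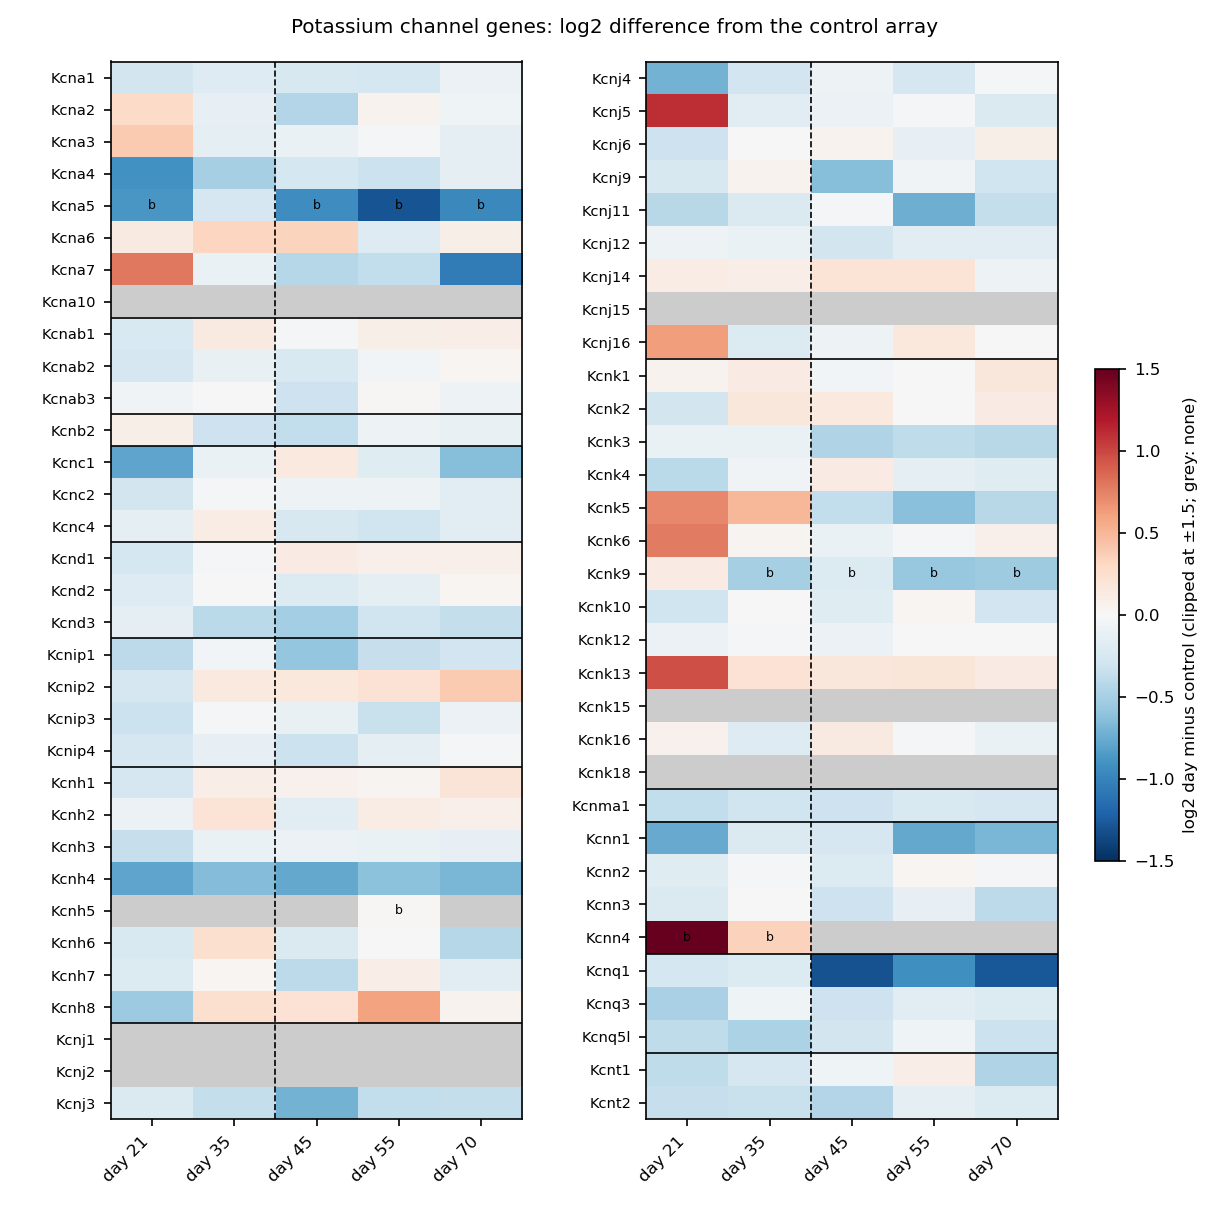
Log2 difference from the control array for 65 potassium channel genes (rows, ordered by subfamily, solid lines between subfamilies) on the 5 days (columns). Colours are clipped at ±1.5. Cells are grey where no difference could be taken, as where neither array was well above background, and b marks a bound. Most cells at day 21 are pale blue, Kcnn4, Kcnj5, Kcnk13, Kcna7, Kcnk6 and Kcnk5 are red there, and Kcnh4 is blue in every column.

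The Kv1 family holds delayed rectifier and A-type channels of axons and terminals. At day 21, 3 of its 7 measured members were below the control and 4 above, with a median of 0.13. On each of the 4 later days 6 of 7 were below, with medians between -0.27 and -0.14. Of all genes 58.3%, 61.8%, 58.5% and 57.6% were below at days 35, 45, 55 and 70. These 4 medians stayed below 0 under the processing tried, but single members changed side with it, Kcna3 on all 4 days.

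Kcna4 encodes the A-type channel Kv1.4 of axons. Its scaled intensity was 917 on the control array, 491 at day 21, 649 at day 35, 762 at day 45, 732 at day 55 and 833 at day 70. The control was the highest array and day 21 the lowest, a 1.87-fold lower signal with a log2 difference of -0.90, against a spot scatter of 0.093 at that brightness. Day 35 was 1.41-fold lower and day 70 1.10-fold lower than the control. Under every processing tried the day 21 difference of Kcna4 stayed between -0.92 and -0.80. Kcna4 was the lowest at day 21 among the members measured on all 6 arrays, and RefSeq gives the 250 bases before its start as follows (assembly GRCr8, chr3:114215086-114215335, plus strand), shown to set beside the promoter of Kcnj5, the highest.

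Kcna4 promoter: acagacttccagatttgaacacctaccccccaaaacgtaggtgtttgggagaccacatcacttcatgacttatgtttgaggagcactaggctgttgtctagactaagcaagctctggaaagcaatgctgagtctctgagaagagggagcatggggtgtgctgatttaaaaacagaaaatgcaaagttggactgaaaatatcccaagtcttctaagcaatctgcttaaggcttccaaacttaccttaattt

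The other axonal Kv1 genes differed less. Kcna1 (Kv1.1) had a signal of 10494 on the control array and between 8703 and 9872 on the 5 others, all below the control. Kcna2 (Kv1.2) was 795 on the control array, 966 at day 21, 728 at day 35, 587 at day 45, 827 at day 55 and 761 at day 70. It was thus highest at day 21, at a log2 difference of 0.28, and lowest at day 45, at -0.44. Kcna3 (Kv1.3), a channel of T cells and microglia, was dim, at 41.5 on the control array, 54.5 at day 21 and 37.5 to 40.9 on the 4 later arrays. Its day 21 difference of 0.40 was under 2 SD of spot scatter for so dim a probe.

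Kcna7, a channel known mainly from heart and skeletal muscle, had the widest range of all members measured throughout, 1.83 log2 units. Its signal was 47.7 on the control array, 82.2 at day 21, 44.5 at day 35, 35.4 at day 45, 36.9 at day 55 and 23.1 at day 70. Day 21 was 1.72-fold higher and day 70 2.06-fold lower than the control. Over the processing tried the log2 difference ran from 0.40 to 0.88 at day 21 and from -1.04 to -0.10 at day 70. A second Kcna7 probe, dimmer still, gave at least 0.39 at day 70, the opposite direction, so the 2 probes disagree there by at least 1.43 log2 units.

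Kcna5 (Kv1.5) was well above background on the control and day 35 arrays, at 35.0 and 29.4, and not on the others, where it read 14.3, 15.3, 10.0 and 18.0 at days 21, 45, 55 and 70. In the main processing the bounds were at least 1.84-fold lower at day 21, 1.91-fold at day 45, 2.46-fold at day 55 and 1.95-fold at day 70. Over the processing tried the log2 differences ran from -1.29 to -0.14 at day 21 and from -1.19 to -0.065 at day 45. At day 55 they ran from -1.80 to -0.28 and at day 70 from -0.96 to -0.22. Kcna6 (Kv1.6) is the case where 2 bright probes part. The brighter read 1349 on the control array and 1482, 1682, 1705, 1178 and 1432 on the later ones in order of day, while the other read 216 and then 204, 209, 128, 150 and 126. At day 45 the first was 0.34 above the control and the second -0.75, that is 0.75 below it. The 2 probes lie close together on rn4 chromosome 4, and the first 30 of their 60 bases are printed because the reading of this gene depends on which is used; no bases are marked.

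Kcna6, chr4:163119201-163119260, minus strand: ggccgtgactcaatctagcttttgtgaaga

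Kcna6, chr4:163120427-163120486, minus strand: tggtgtcacggtccctcattgtgcctcagt

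The cytoplasmic Kv beta subunits Kcnab1, Kcnab2 and Kcnab3, which bind Kv1 channels, were all below the control at day 21, with a median of -0.23. Kcnab1 read 4692 on the control array, 4002 at day 21 and between 4613 and 5171 later. At days 55 and 70 the median of the 3 was 0.022 and 0.030.

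Kv2 channels carry the slow delayed rectifier of cell bodies. Kcnb2 (Kv2.2) was 603 on the control array, 643 at day 21, 488 at day 35, 466 at day 45, 574 at day 55 and 559 at day 70.

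Kv3 channels repolarise fast-spiking interneurons. Kcnc1 (Kv3.1) read 514 on the control array, 297 at day 21, 478 at day 35, 571 at day 45, 455 at day 55 and 329 at day 70. It was 1.73-fold lower at day 21 and 1.56-fold lower at day 70, while day 45 was the highest of the 6, so the low arrays were not neighbours in time. Under the processing tried the day 21 difference ran from -0.83 to -0.67 and that of day 70 from -0.64 to -0.54. Kcnc2 (Kv3.2) differed less, with differences of -0.27 at day 21 and from -0.16 to -0.030 later, and its second probe gave 0.033 at day 21. Pvalb, the calcium-binding protein gene of many of the same interneurons, read 6299 on the control array and 6391 at day 21, and between 6151 and 6451 later.

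Kv4 channels and their calcium-binding partners, the Kv channel interacting proteins, form the dendritic A-type current. Kcnd2 (Kv4.2), the main Kv4 gene of pyramidal dendrites, was among the 3 members of narrowest range. It read 7830 on the control array, 6825 at day 21, 7829 at day 35, 6819 at day 45, 7155 at day 55 and 7978 at day 70, a range of 0.23 log2 units. A second Kcnd2 probe, averaged over 10 spots, read 3180, 2604, 3232, 3042, 3030 and 3249 in the same order. Its day 21 difference of -0.29 was near the -0.20 of the first. Kcnd3 (Kv4.3), in hippocampus mainly an interneuron channel gene, was below the control on all 5 days, by 1.11-fold at day 21, 1.32-fold at day 35, 1.42-fold at day 45, 1.23-fold at day 55 and 1.29-fold at day 70.

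All 4 interacting protein genes were below the control at day 21, between -0.39 and -0.25. Kcnip2 read 365 on the control array, 306 at day 21, 405 at day 35, 407 at day 45, 424 at day 55 and 480 at day 70. It was the lowest at day 21 and above the control on every later array, reaching 1.31-fold at day 70. Kcnip1 was the opposite on slide 2, at 144 on the control array and 96.9, 114 and 118 at days 45, 55 and 70. Kcnip3 had differences from -0.33 to -0.029 and Kcnip4 from -0.32 to -0.013.

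In the KCNH family, which holds the EAG, ERG and ELK channels, all 7 measured members were below the control at day 21, with a median of -0.25. At day 35, 5 of the 7 were above it, with a median of 0.11. Kcnh4 (an ELK channel) was low on every array but the control. Its signal was 296 on the control array, 171 at day 21, 188 at day 35, 174 at day 45, 193 at day 55 and 184 at day 70. The 5 occluded arrays lay close together and all below the control, from 1.53-fold to 1.73-fold, and over the 5 days and the processing tried the differences ran from -0.84 to -0.46. All of them rest on the 1 control array.

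Kcnh8, another ELK channel gene, had a dim probe and was likewise lowest at day 21 but not below the control later, reading 32.4 on the control array, 22.2 at day 21, 38.4 at day 35, 37.6 at day 45, 49.1 at day 55 and 33.6 at day 70. It was lowest at day 21 and highest at day 55, at 1.51-fold. Kcnh3, an ELK channel gene of the forebrain, was 8065 on the control array, 6335 at day 21 and 7426 to 7573 later, and its second probe was lower by more at day 21, at -0.68. Kcnh1 (EAG1) and Kcnh2 (ERG1) were -0.25 and -0.085 at day 21 and between -0.16 and 0.21 later. Kcnh7 (ERG3) was -0.21 at day 21 and -0.39 at day 45, and Kcnh6 lay between -0.42 and 0.24.

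KCNQ channels carry the M current, which dampens repetitive firing. All 5 KCNQ genes were below the control at days 21, 45 and 55, with medians of -0.38, -0.60 and -0.36. Kcnq3, which encodes a neuronal subunit of that current, read 7870 on the control array, 5612 at day 21, 7548 at day 35, 6327 at day 45, 7069 at day 55 and 6818 at day 70. The control was highest and day 21 lowest, 1.40-fold lower. Kcnq5, listed on the array as Kcnq5l, was -0.38 at day 21 and from -0.47 to -0.068 later.

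Kcnq1, a cardiac and epithelial subunit gene, divided the arrays by slide. It read 166 on the control array, 138 at day 21, 143 at day 35, 67.0 at day 45, 87.4 at day 55 and 68.4 at day 70. The 3 arrays of slide 1 and the 3 of slide 2 do not overlap, and days 45 and 70 were 2.47-fold and 2.42-fold lower than the control. A second probe gave -1.20 at day 45, -0.33 at day 55 and -0.66 at day 70, against -1.31, -0.92 and -1.28 for the first. The first 30 of 60 bases of both are printed because Kcnq1 had the largest late differences of members measured throughout; no bases are marked.

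Kcnq1, chr1:203802631-203802690, plus strand: aagtcgtagccagtgatgaaggtggctcca

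Kcnq1, chr1:203803528-203803587, plus strand: gttaagggcatcgcggtttctcccaggatc

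Inward rectifiers conduct best below the resting potential, and Kcnj3, Kcnj5, Kcnj6 and Kcnj9 encode the GIRK subunits that G protein-coupled receptors open. Of the 9 measured, 6 were below the control at day 21, with a median of -0.21. Kcnj5 (GIRK4) read 152 on the control array, 327 at day 21, 134 at day 35, 142 at day 45, 149 at day 55 and 130 at day 70. Day 21 stood alone, 2.16-fold above the control, while the 5 other arrays lay between 130 and 152. The day 21 difference of 1.11 ran from 0.91 to 1.17 under the processing tried, falling under 2-fold at its low end. The 250 bases before the start of Kcnj5 in RefSeq (GRCr8, chr8:39011097-39011346, minus strand) are printed with 3 motif matches in capitals, GAGGAAG once and GGGCGG on 2 occasions.

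Kcnj5 promoter: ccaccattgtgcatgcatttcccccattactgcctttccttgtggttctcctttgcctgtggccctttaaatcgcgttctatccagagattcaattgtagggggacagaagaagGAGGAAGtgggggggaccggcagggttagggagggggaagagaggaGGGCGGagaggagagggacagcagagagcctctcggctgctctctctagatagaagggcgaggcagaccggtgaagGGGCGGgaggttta

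The motifs searched, on both strands, were GAGGAAG (an ETS type site), GGGCGG (the GC box), CACGTG (the E box), TGACGTCA (the cAMP response element) and TGANTCA (the AP-1 type). None of them overlap in the matches shown. RefSeq promoters were found for 44 of the 68 members. GAGGAAG occurred in 10 of the 44 (22.7%) and in 10.2% of all 33469 promoters of the same length, GGGCGG in 20 of 44 (45.5%) and in 30.5% of all. CACGTG and TGANTCA each occurred in 1 of 44 (5.59% and 6.34% of all), and TGACGTCA in none (1.59% of all). The Kcna4 window held none of the 5. Among members measured on all 6 arrays, Kcnk13 was next highest at day 21 after Kcnj5, and its window held none either. Kcnh4 was next lowest after Kcna4, and its window held CACGTG once. The G and C content of the Kcna4 window was 42.8%, and that of Kcnj5 57.2%. Medians were 62% over the member promoters and 51.2% over all. A match describes letters only.

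The remaining inward rectifiers differed by less than 2-fold. Kcnj3 (GIRK1) read 4538 on the control array, 3917 at day 21, 3546 at day 35, 2767 at day 45, 3506 at day 55 and 3552 at day 70, below the control on all 5 days and 1.64-fold lower at day 45. Its second probe did not follow, at -0.082 on day 45. Kcnj9 (GIRK3) was also lowest at day 45, at 420 against 654 on the control array, 1.56-fold lower. Its second probe gave -0.30 there. Kcnj6 (GIRK2) lay between -0.31 at day 21 and 0.088 at day 70.

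Kcnj4, an inward rectifier of forebrain neurons, read 268 on the control array, 164 at day 21, 219 at day 35, 255 at day 45, 225 at day 55 and 265 at day 70, lowest at day 21 by 1.64-fold. Kcnj11, the pore of the ATP-sensitive channel, read 77.5 on the control array, 58.1 at day 21 and 46.6 at day 55, where it was 1.67-fold lower. Kcnj16, which pairs with the astrocyte channel Kcnj10, read 117 on the control array, 181 at day 21 and between 102 and 131 on the 4 later arrays. Day 21 was the highest, 1.55-fold above the control, on the array where 8 of 9 astrocyte marker genes were also above it with a median of 0.25. The contribution of astrocyte RNA was not tested.

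**Figure D3:**
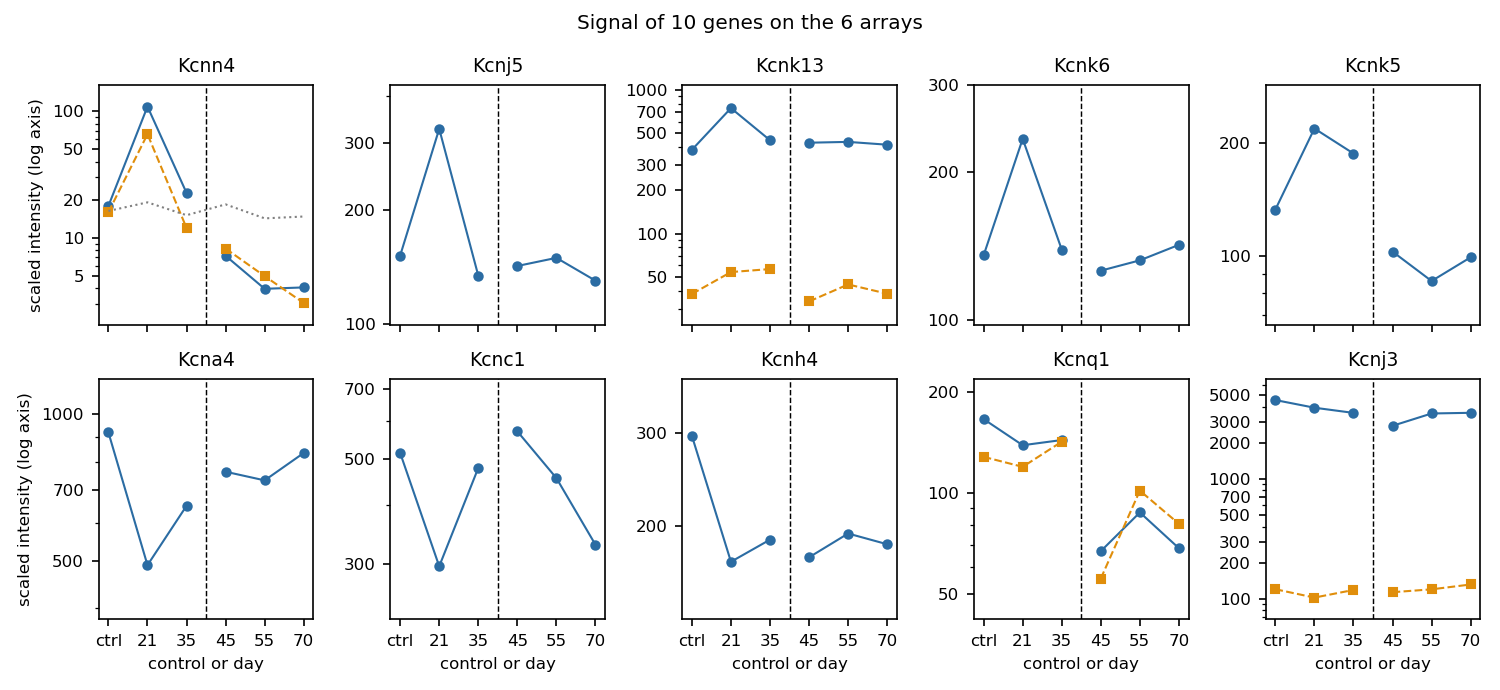
Scaled intensity (log axis, a separate scale for each gene) of 10 potassium channel genes on the control array and at days 21 to 70; blue circles are the probe used, orange squares a second probe, the dashed line the change of slide and the dotted line in the Kcnn4 panel the lowest signal well above background. Kcnn4, Kcnj5 and Kcnk6 peak at day 21, as does the probe used for Kcnk13, whose second probe is highest at day 35. Kcna4 and Kcnc1 dip at day 21, Kcnh4 is highest on the control array, and Kcnq1 is lower on slide 2.

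The 2-pore leak channels, which hold the resting potential, were divided at day 21 into 6 above and 5 below the control, with a median of 0.055 whose sign changed with the processing. Kcnk13 (THIK-1), the leak channel of microglia, read 382 on the control array, 743 at day 21, 445 at day 35, 428 at day 45, 433 at day 55 and 414 at day 70. Day 21 was 1.95-fold above the control and the 4 later arrays only 1.09-fold to 1.17-fold above it. A second, dimmer probe read 38.1 on the control array, 54.0 at day 21 and 56.7 at day 35, a day 21 difference of 0.51. Kcnk6 (TWIK-2), a leak channel known from macrophages, read 136 on the control array, 234 at day 21, 139 at day 35, 126 at day 45, 132 at day 55 and 142 at day 70. It was thus 1.72-fold higher at day 21 and elsewhere within 1.07-fold of the control.

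Kcnk5 (TASK-2), a leak channel gene of kidney and other epithelia, read 133 on the control array, 219 at day 21, 188 at day 35, 103 at day 45, 86.0 at day 55 and 99.5 at day 70. It was above the control at days 21 and 35, by 1.64-fold and 1.41-fold, and below it on all of slide 2. Day 70 was 1.34-fold lower than the control. The choroid plexus sum was high on the day 21, 35 and 70 arrays, and its part in the Kcnk5 values was not tested.

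The neuronal leak channels lay nearer the control at day 21. Kcnk2 (TREK-1) was 1309 on the control array, 1085 at day 21 and between 1302 and 1467 later, but its other 2 probes were below the control at day 35 and day 45 as well. Kcnk3 (TASK-1) read 323 on the control array, 300.2 and 302 at days 21 and 35, and 235, 248 and 242 on slide 2, whose arrays were 1.30-fold to 1.37-fold lower. Kcnk9 (TASK-3), well above background on the control and day 21 arrays only, read 21.2 and 23.0 there. Kcnk1 (TWIK-1) and Kcnk12 (THIK-2) had with Kcnd2 the narrowest ranges, 0.21 and 0.096 log2 units. Kcnk12 read 2574 on the control array and between 2415 and 2581 on the others. Kcnk10 (TREK-2) was -0.29 at days 21 and 70 with both probes below the control on each. Of 3 Kcnk16 probes 1 was well above background on all arrays, at 240 to 302, and the other 2, both dim, parted from each other by at least 1.10 log2 units at day 70.

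Among channels opened by calcium, Kcnn4 (the IK channel KCa3.1, of microglia, macrophages and T cells) had the largest difference of all members. It read 17.9 on the control array, where it was not well above background, 109 at day 21, 22.6 at day 35, and 7.20, 3.95 and 4.05 at days 45, 55 and 70, again not above background. Day 21 was at least 6.10-fold higher than the control, and it was the only array clearly above the rest. A second probe read 15.9 on the control array and 65.9 at day 21, at least 2.02 log2 units higher against 2.61 for the first. The size depended on the background correction, with a range from 0.96 to 2.88 over the processing tried.

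Kcna3, Kcnn4, Kcnk6 and Kcnk13, the 4 members listed for microglia or macrophages, were set beside one another after earlier results of the series were known. Their differences were 0.40, at least 2.61, 0.78 and 0.96 at day 21, and -0.15, at least 0.34, 0.038 and 0.22 at day 35. The value of Kcna3 lies within 2 SD of spot scatter. Kcna5, a Kv1 channel also known from microglia, was at least 1.84-fold lower at day 21 in the main processing. Its log2 difference there ran from -1.29 to -0.14 over the processing tried. The part of the microglia markers in these values was not tested.

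The SK channels, which carry the afterhyperpolarisation, were below the control at day 21, where 60.5% of all genes were. Kcnn1 read 101 on the control array, 59.5 at day 21, 86.8 at day 35, 84.7 at day 45, 59.1 at day 55 and 62.9 at day 70. Days 21, 55 and 70 were low, by 1.70-fold, 1.70-fold and 1.60-fold, but a second probe gave -0.45 at day 21, -0.36 at day 55 and 0.0044 at day 70. Kcnn2 and Kcnn3 were -0.19 and -0.22 at day 21. Kcnma1, the BK channel pore, read 800 on the control array and between 619 and 683 on the other 5, which were 1.17-fold to 1.29-fold lower, and both further probes were below the control on all 5 days. The sodium-activated channel genes Kcnt1 and Kcnt2 were -0.38 and -0.34 at day 21, and Kcnt2 was below the control on every day.

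**Figure D4:**
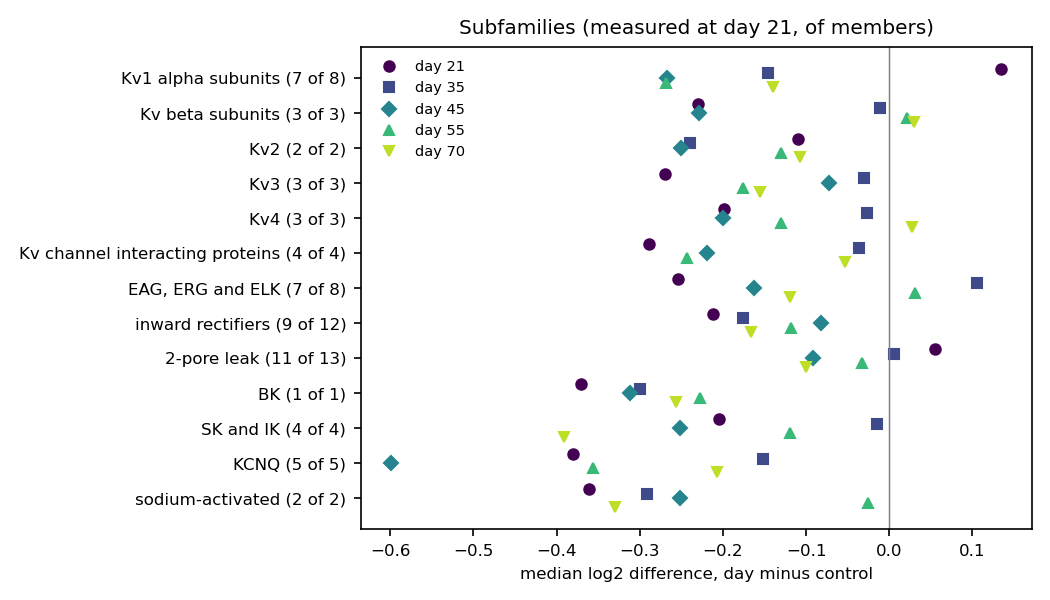
Median log2 difference from the control array for each of the 13 potassium channel subfamilies (rows, with the number measured at day 21 of all members) on the 5 days (symbols). KCNQ lies farthest below 0, at -0.60 on day 45, and the Kv1 and 2-pore leak medians are the only ones above 0 at day 21, the latter with a sign that changed with the processing.

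Where a gene had more than 1 probe, the probes were compared. At day 21, 17 of 20 such genes had their probes on the same side of the control, with a median gap of 0.26 log2 units, and at day 70 it was 9 of 19. Over settings, 44 of 61 members were below the control at day 21 under every processing tried and 14 above it. In the single settings 54.8% to 61.4% of all genes were below the control at day 21. The share of all genes that kept 1 side under every processing was not computed. On the 4 later days between 18 and 22 members changed side with the processing.

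Subunits that modify these channels, or assemble with Kv2 without forming channels themselves, were read from a list of 32 genes, of which 30 were on the array. At day 21, 27 were measured, 19 below and 8 above the control, with a median of -0.16; 1 was lower by 2-fold, Kcns2, and none higher. Of 26 measured on each later day, 0, 4, 3 and 4 were lower by 2-fold at days 35, 45, 55 and 70, where 1.13%, 5.78%, 4.98% and 6.7% of all genes were; at day 21 it was 1.88%. Kcns2, a silent Kv2 partner, read 112 on the control array, 43.2 at day 21, 122 at day 35 and 41.8, 39.5 and 44.9 on slide 2. The control and day 35 were high and the 4 others low, with differences from -1.51 to -1.32. Kcne4 and Kcne5, small membrane subunits that inhibit Kcnq1 channels, had differences from -0.41 to 0.062 at days 21 and 35 and were low on all of slide 2. Kcne4 read 53.6 on the control array and 24.4 to 26.4 on slide 2, and Kcne5 88.2 and 37.5 to 41.2, the same split by slide as Kcnq1. Kcnv1, another silent subunit gene, was -0.77 at day 21 and between -0.18 and -0.014 later. Lgi1, a secreted protein bound to Kv1 complexes, was -0.60 at day 21, and Kcnmb4, the neuronal BK beta subunit, -0.34.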

How the data were processed

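Hippocampal RNA pools were read on 6 arrays, 1 per group. The authors deposited 1 scanner file per array; per the file headers the array was design 028282, with positions in build rn4, and Feature Extraction 10.7.3.1 read it, and its processed intensity is background-subtracted and detrended. The labels name Cy5, whereas the files hold the green channel only. Outlier spots were left out (346 to 470 per array), log2 intensity was set to the array's 75th percentile, spots of a probe were averaged and each gene took its brightest probe. Dim signals entered as bounds. Probes were named through RefSeq (GRCr8), and all 68 members were found there. Scripts used Python 3.11.15, R 4.3.3 and limma 3.58.1 (for the normexp alternative) and were tested on simulated data. The authors' deposited value table, of intensity with unstated scale, served as an alternative, as did 6 other settings and a threshold of 1.5-fold. Genes named were those at least 2-fold from the control, the 12 of widest and 3 of narrowest range, probe disagreements over 1 log2 unit, and a list of main hippocampal and microglial channels; others were chosen after their values were seen. Members and lists were chosen with earlier results of these data known. A Kcnip2 probe filed as Kchip2 was not analysed here, and some members in the counts are not reported by name.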

Additional observations from a re-analysis of the deposited data

How the results depend on the processing

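No paired analysis was possible because each group has 1 array, and for the same reason no replicate could be left out. With normexp background correction no member was 2-fold from the control at day 21, 45, 55 or 70 (0 each). On those days 1.93, 0.893, 0.751 and 1.2% of all genes were. The members' day 21 median was -0.162. With no filter on dim probes the counts were 4, 6, 4 and 7 of 68 members at days 21, 45, 55 and 70. Of all genes 8.74, 12.3, 9.98 and 12.3% passed. With members well above background on all 6 arrays the counts were 1, 1 and 0 at days 21, 45 and 55. Among all genes measured so, 3.5, 3.77 and 2.57% passed. With the mean of all probes the counts were 1 at day 45 (6.07% of all genes) and 0 at day 70 (6.93% of all genes). At 1.5-fold they were 14, 2, 7, 7 and 7 at days 21, 35, 45, 55 and 70, where 13.2, 5.75, 13.9, 12.8 and 14.8% of all genes passed. Quantile normalization gave counts of 1 and 0 at days 45 and 55, where 3.84 and 4.35% of all genes passed. The members' medians under it were -0.0564 at day 45, -0.0518 at day 55 and -0.0276 at day 70. Median scaling gave medians of -0.0877 at day 45, -0.0377 at day 55 and -0.0222 at day 70. The authors' deposited values gave counts of 0, 0 and 1 at days 45, 55 and 70, where 1.6, 1.76 and 1.92% of all genes passed. The members' medians in those values were -0.0503 at day 45, -0.0383 at day 55 and -0.0281 at day 70. The day 35 median turned positive, to 0.00991 and 0.00866, under median scaling and in the authors' values. The day 21 median stayed below 0 under all of these settings, and the cause of the changes was not tested. With 1 array per group, dim probes such as those of Kcna5 and Kcnn4 set the limit of what can be read.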
